A study of Mus musculus with 2 samples.

Results

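The genes described here encode factors that silence embryonic and fetal globin genes in adult red cells, or act on that silencing: Bcl11a, Zbtb7a, Sox6, Ikzf1, Nr2c1, Nr2c2, Myb, Mbd2, Chd4 and Lin28b. They were chosen by symbol, through their Ensembl gene identifiers, and make up 10 of the 43346 Ensembl genes in the tables. All 10 were found in both libraries' tables. RNA left after removal of ribosomal RNA was sequenced from primary CFU-E cells (erythroid colony-forming units, progenitors already committed to the red cell lineage) of adult male C57BL/6J mice, 5 to 6 weeks old. The isolation protocol named in the labels is one for erythroid and megakaryocytic cells of bone marrow, and libraries were made with ScriptSeq from 100 ng of RNA. There was 1 group, with no treatment or mutation named in the labels, and it held 2 biological replicates. Their labels name separate biosamples under a single donor identifier, so the SDs given here may hold technical as well as biological variation. The labels also give each library its own size range in bases, higher at both ends in replicate 1. The part of this difference in the levels and transcript shares below was not tested. With 1 group there is no comparison between conditions, and no p-value is given. The questions the data can answer are how high each silencing gene stood, which of its transcripts carried the signal, and how closely the replicates matched.

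Each red cell precursor carries clusters of alpha-like and beta-like globin genes, and development moves expression from embryonic to adult members of each cluster. In mice the embryonic genes are Hba-x, Hbb-y and Hbb-bh1; humans also have a fetal stage with gamma-globin. Sequence-specific repressors such as BCL11A, ZBTB7A (also called LRF), SOX6, Ikaros and the orphan receptors TR2 and TR4 bind in the beta-like cluster, and several of them bring in NuRD, a complex that joins a chromatin remodeller to histone deacetylases. LIN28B acts the other way in human cells: it blocks let-7 microRNAs, and raising it in adult erythroid cells raises gamma-globin and lowers BCL11A.

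Gene counts, which are estimates and need not be whole, totalled 62576357 in replicate 1 and 36889542 in replicate 2. Levels are in TPM (transcript abundance scaled by length and library size, so that genes can be compared), with the SD over n = 2. The TPM scale itself differed between libraries: the median log2 ratio of replicate 1 over replicate 2 was 0.66 in TPM and 0.02 after TMM scaling of counts, over 9480 nuclear protein-coding genes whose mean count was 50 or more. All 7 erythroid marker genes, whose summed levels were 1590 and 980 TPM in replicates 1 and 2, reached 1 TPM in both libraries. Of nuclear protein-coding genes, 23.9% did so. None of the 7 stem and early progenitor markers did so, Kit included, at 0.42 and 0.51 TPM, although Kit is the stem cell factor receptor that CFU-E cells are known to carry. Kit was not absent: it had 345 and 328 counts. With TPM rescaled so that nuclear protein-coding genes alone make up the whole, it stood at 3.38 and 6.81. On that scale 4 of the 7 stem and early progenitor markers reached 1, against 42.2% of nuclear protein-coding genes. At a minimum of 10 counts 6 passed, against 46.0%. Set against the same 23.9%, granulocyte markers reached 1 TPM in 7 of 7 cases and monocyte and macrophage markers in 4 of 5. B cell markers did so in 4 of 7 cases, megakaryocyte markers in 2 of 5 and T cell markers in 1 of 6. Their summed levels in replicates 1 and 2 were 1190 and 599 TPM for granulocytes, 119 and 71.9 for monocytes and macrophages, 39.0 and 20.2 for B cells, 13.6 and 4.24 for megakaryocytes, and 4.16 and 1.77 for T cells. No gene of these lists was at 0 in both libraries. Their part in the levels below was not tested, and in bulk RNA fewer cells of a type cannot be told apart from less RNA per cell.

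Of the 10 silencing genes, 7 reached 1 TPM in both libraries, against 23.9% of 21461 nuclear protein-coding genes. On the scale of nuclear protein-coding genes alone 8 passed, against 42.2%, at a minimum of 5 TPM 4 passed, against 8.82%, and at a minimum of 10 counts 9 passed, against 46.0%. The median of their mean levels was 5.31 TPM, against 0.055 for all nuclear protein-coding genes and 4.41 for the 5139 of those genes that reached 1 TPM in both libraries. Their levels ran over a wide range: Sox6 led by far, the NuRD subunits Mbd2 and Chd4 followed, Ikzf1, Nr2c2, Myb and Zbtb7a formed a middle group, Bcl11a was near 1 TPM, Nr2c1 was barely detected and Lin28b had no reads. Neighbours in this order differed beyond their spread, judged by the ratio within each library, at every step from Sox6 to Nr2c1 except from Ikzf1 to Nr2c2 (mean log2 ratio 0.13 ± 0.56) and from Nr2c2 to Myb (0.19 ± 0.44). The step from Nr2c1 to Lin28b has no ratio, since Lin28b was at 0.

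**Figure D1:**
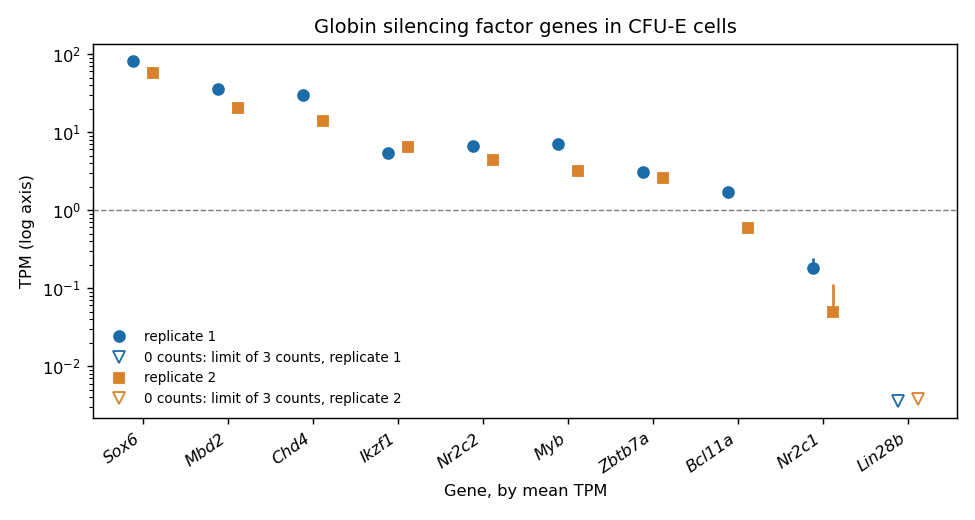
Levels of the 10 silencing factor genes in CFU-E cells, in TPM on a log axis, by library; vertical lines are the deposited credibility intervals, the dashed line is 1 TPM, and open triangles are the level that 3 counts would give Lin28b, which had 0 counts. Sox6 stands at 81.2 and 57.1 TPM in replicates 1 and 2, and Bcl11a lies on either side of the dashed line.

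Sox6 encodes an HMG-box factor that in mice silences the embryonic gene Hbb-y by binding its promoter, and that can act with BCL11A. The gene lies on the minus strand of chromosome 7 (mm10, chr7:115470872-116038796). It had 49388 expected counts in replicate 1 and 32503 in replicate 2, which is 81.2 TPM (credibility interval 79.7 to 81.4) and 57.1 TPM (55.8 to 57.2). It was among the highest nuclear protein-coding genes: 159 stood above it in replicate 1 and 146 in replicate 2, or 0.741% and 0.680% of them. Its level was 2.25 and 2.77 times that of Mbd2, the next gene in the order. The paralog Sox13, which shares the SoxD family with Sox6, had 0 and 1 counts and was listed at 0 TPM in both libraries. Sox5, another paralog, named here after its values were seen, had 169 and 82 counts, or 1.11 and 0.14 TPM. With TPM rescaled so that nuclear protein-coding genes alone make up the whole, Sox6 averaged 708 ± 76.6, a narrower relative spread than the 69.1 ± 17.1 on the deposited scale. On the rescaled scale replicate 2 was the higher, at 762 against 654 in replicate 1, the reverse of the deposited order.

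Most Sox6 signal in TPM was assigned to a transcript that starts inside the gene. Sox6-203, whose first base lies at position 115846105 of chromosome 7, held 75.6% of Sox6 TPM in replicate 1 and 71.6% in replicate 2. Sox6-204, which starts far upstream at position 116038744, held 18.9% and 16.3%, and Sox6-205, which starts at position 115824710, held 5.43% and 12.1%. The annotated Sox6-203 is 2825 bases long, while Sox6-204 has 8079 bases because of a long 3′ end, and the share depends on this. By expected counts Sox6-203 held 52.9% and 50.1% and Sox6-204 held 39.9% and 34.0%. Sox6-201 was at 0.05 and 0.03 TPM, and Sox6-202 had 0 counts in both libraries. Both libraries placed the 3 leading forms in the same order by TPM and by counts.

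**Figure D2:**
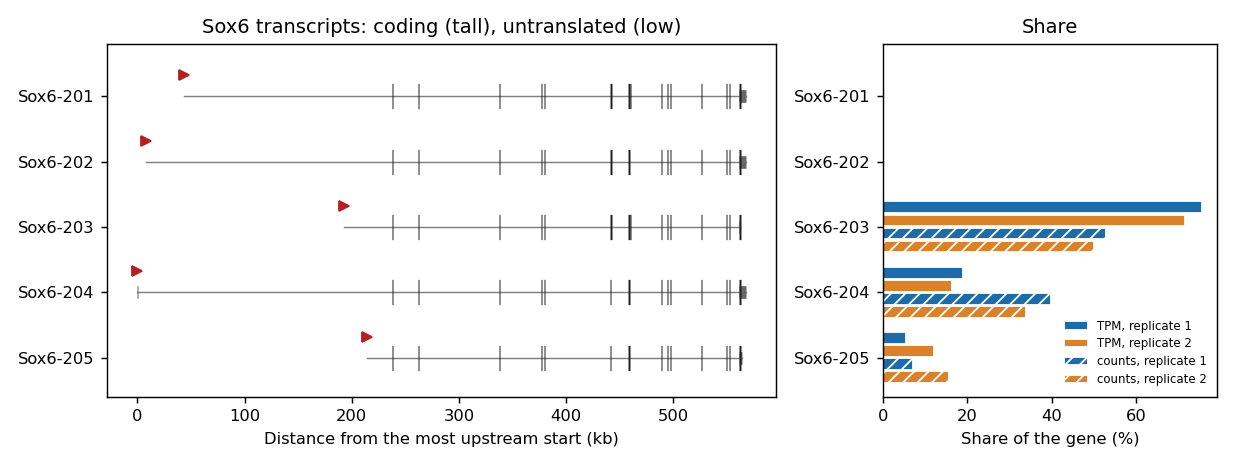
Left, exons of the 5 annotated Sox6 transcripts by distance in kb from the most upstream start, with coding parts tall, untranslated parts low and a triangle at each start; short coding exons are drawn at a minimum width. Right, the share of Sox6 in each transcript in percent, by TPM (plain) and by expected counts (hatched), for both libraries; Sox6-203 holds 75.6% and 71.6% by TPM but 52.9% and 50.1% by counts.

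The 250 bases before each of these RefSeq start sites (GRCm38.p6, minus strand) are shown because they belong to the internal and the upstream start that carry most Sox6 signal. The first is chr7:115846141-115846390 and the second chr7:116038745-116038994. Capitals mark matches on either strand to GATA motifs (AGATAA, where the first letter may also be T and the last may also be G) or to CCACACCC (a site of KLF1, the erythroid Krüppel-like factor).
Sox6-203 promoter: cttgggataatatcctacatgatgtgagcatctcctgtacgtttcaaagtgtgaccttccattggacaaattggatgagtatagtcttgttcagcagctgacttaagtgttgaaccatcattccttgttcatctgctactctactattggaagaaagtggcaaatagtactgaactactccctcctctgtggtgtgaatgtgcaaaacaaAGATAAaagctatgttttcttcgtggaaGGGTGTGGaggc
Sox6-204 promoter: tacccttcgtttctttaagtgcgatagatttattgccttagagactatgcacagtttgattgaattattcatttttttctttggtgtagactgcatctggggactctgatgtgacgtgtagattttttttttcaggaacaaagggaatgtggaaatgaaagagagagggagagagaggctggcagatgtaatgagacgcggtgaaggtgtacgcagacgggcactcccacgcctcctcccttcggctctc
The window of Sox6-203 holds 1 GATA match, which begins 40 bases before the start site, and 1 CCACACCC match, which begins 12 bases before it. The window of Sox6-204 holds neither. The RefSeq start site of the first window, position 115846140, lies 35 bases upstream of the annotated first base of Sox6-203. For Sox6-204 the RefSeq start site is the annotated first base. RefSeq windows were found for 9 of the 10 genes, 16 windows in all, each of 250 bases before and 50 after a start; 6 of the 16 (37.5%) hold a GATA match, against 29.8% of 32851 windows of the same length in the table. Within Sox6, the window at the start of Sox6-201, a form at 0.05 and 0.03 TPM, holds 2 GATA matches. The window at the start of Sox6-205, a form at 4.41 and 6.89 TPM, holds none. A CCACACCC match is in 1 of the 16, that of Sox6-203, against 3.6% of all windows. TGACCA, the motif BCL11A binds, is in 0 of the 16, against 13.6%. These are letter matches, and no binding was measured.

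The Sox6 forms also differ in protein. Sox6-203, with Sox6-201, encodes 827 codons and includes a coding exon that Sox6-204 and Sox6-205 lack (787 codons). The exon is chr7:115579016-115579138 (GRCm38, minus strand), 123 bases long, and stands in capitals between 20 bases of each neighbouring exon.
Sox6 coding exon: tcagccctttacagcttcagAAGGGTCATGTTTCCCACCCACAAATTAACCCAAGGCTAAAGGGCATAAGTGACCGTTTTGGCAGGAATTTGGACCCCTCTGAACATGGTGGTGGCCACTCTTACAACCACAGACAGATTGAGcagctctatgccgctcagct
Forms with 827 codons took 75.7% and 71.6% of Sox6 TPM and 53.0% and 50.2% of its counts in replicates 1 and 2. By counts, which longer transcripts gather more of, the protein forms were near equal in both libraries.

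Bcl11a encodes the zinc finger repressor best known for silencing human gamma-globin and the mouse embryonic beta-like genes. It lies at chr11:24078056-24174123 on the plus strand. It had 1156 counts and 1.73 TPM (1.61 to 1.87) in replicate 1, and 511 counts and 0.59 TPM (0.554 to 0.680) in replicate 2. Replicate 1 was above 1 TPM and replicate 2 below it, so Bcl11a is not among the 7 genes counted above. That position depends on the scale. When only nuclear protein-coding genes were counted in the total, Bcl11a stood at 13.9 in replicate 1 and 7.88 in replicate 2. Both values were above 1, a level that 42.2% of nuclear protein-coding genes reached on that scale. In replicate 1, 24.2% of nuclear protein-coding genes were higher, and in replicate 2, 30.4%. After TMM scaling of counts the replicates differed by less, with a log2 ratio of 0.47 for replicate 1 over replicate 2, against 1.55 in TPM. Bcl11a is also made by B cells, whose markers are summed above, and what share of its reads came from such cells was not tested.

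The Bcl11a reads fell on few coding forms. Bcl11a-202, the long form called XL (835 codons), had 421 and 276 counts and held 26.0% and 53.4% of Bcl11a TPM. The L form, Bcl11a-201 (773 codons), had 74.1 and 0 counts, and the short S form, Bcl11a-203 (243 codons), had 0 in both. Bcl11a-204 (191 codons), which is far shorter, had 111 counts in replicate 1 and 0 in replicate 2, or 30.6% and 0 of TPM. By TPM it was thus above XL in replicate 1, at 0.53 against 0.45, while XL had more counts in both libraries. Bcl11a-205, annotated as a retained intron and not as coding, had 550 and 235 counts, or 34.1% and 46.6% of TPM. XL reads on through the exon at the point where L splices to its last exon, shown here on the plus strand (GRCm38) with the bases after that point in capitals; the XL exon is chr11:24163146-24168429 and the L exon chr11:24172699-24173194.
Bcl11a-202 (XL): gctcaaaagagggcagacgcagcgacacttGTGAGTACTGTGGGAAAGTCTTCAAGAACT
Bcl11a-201 (L): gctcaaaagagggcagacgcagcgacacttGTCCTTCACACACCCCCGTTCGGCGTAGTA
With protein-coding transcripts alone, Bcl11a stood at 1.14 and 0.31 TPM.

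Bcl11a was set beside its paralog, beside its activator and beside Zbtb7a. Bcl11b, the paralog that acts in T cells, had 0.05 and 0.10 TPM, and Bcl11a was 34.6- and 5.90-fold higher (mean log2 ratio 3.84 ± 1.80). Klf1, the erythroid factor known to activate BCL11A, had 53.4 and 18.9 TPM, so that Bcl11a stood at 0.0324 and 0.0313 times the Klf1 level. The mean log2 ratio was -4.97 ± 0.04 in TPM, with both genes higher in replicate 1. In counts with no length correction it was -3.31 in replicate 1 and -2.91 in replicate 2, and with protein-coding transcripts alone it was -5.74 ± 0.27.

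Zbtb7a, a BTB zinc finger repressor that silences gamma-globin separately from BCL11A in human cells, lies at chr10:81135220-81152995 (plus strand). It had 2876 counts and 3.08 TPM in replicate 1, and 2264 counts and 2.61 TPM in replicate 2. It was 1.78- and 4.42-fold higher than Bcl11a (mean log2 ratio 1.49 ± 0.93). All its reads were assigned to Zbtb7a-201 in both libraries, although 6 Zbtb7a transcripts are annotated. Zbtb7b, the paralog known from T cell fate, had 1.18 and 0.40 TPM, and Zbtb7a was 2.61- and 6.53-fold higher. Zbtb7c was at 0 counts in both libraries.

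Ikzf1 encodes Ikaros, a zinc finger factor of blood cells that can join NuRD and bind the beta-like cluster, and lies at chr11:11685003-11772926 (plus strand). It had 4358 counts and 5.46 TPM (5.33 to 5.94) in replicate 1, and 2893 counts and 6.36 TPM (5.73 to 7.18) in replicate 2. It was the 1 detected silencing gene that was higher in replicate 2 on the TPM scale, and the 1 whose credibility intervals overlapped. Ikzf1-204 (515 codons) held 90.8% and 91.1% of Ikzf1 counts. By TPM the same form held 89.9% and 55.1%. In replicate 2 the short fragments Ikzf1-205 (446 bases) and Ikzf1-206 (242 bases) took 19.6% and 15.9% of TPM from 50 and 11 counts, and both had 0 counts in replicate 1. These fragments added 1.25 and 1.01 TPM, and the higher TPM of Ikzf1 in replicate 2 depends on them. Ikzf1-204 itself was higher in replicate 1 (4.90 against 3.51 TPM), as was Ikzf1-203 (0.54 against 0.23). Ikzf1-202 was higher in replicate 2 (0.37 against 0.01 TPM). Ikzf1-203, which adds a coding exon (535 codons), held 9.12% and 5.37% of counts. That exon, chr11:11740950-11741009 (GRCm38, plus strand), has 60 bases, here in capitals between 20 bases of each neighbour.
Ikzf1 coding exon: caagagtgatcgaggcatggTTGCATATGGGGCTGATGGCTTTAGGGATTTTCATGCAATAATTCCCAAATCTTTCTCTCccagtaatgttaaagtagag
The paralog Ikzf2 (Helios, known from T cells) had 0.49 and 0.46 TPM, and Ikzf1 was 11.1- and 13.8-fold higher. Ikzf4 was at 0 counts in both libraries, and Ikzf5 (Pegasus), among the paralogs of highest level, had 6.15 and 3.95 TPM. Ikzf1 is also a factor of B and T cells, and the part of the lymphoid markers summed above was not tested.

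Nr2c1 and Nr2c2 encode the orphan nuclear receptors TR2 and TR4, which bind direct repeats in embryonic and fetal globin promoters as partners. Their levels were far apart. Nr2c1 (chr10:94148023-94197211, plus strand) had 102 and 29 counts, or 0.18 and 0.05 TPM, while Nr2c2 (chr6:92091390-92174294, plus strand) had 4940 and 4294 counts, or 6.55 and 4.42 TPM. Nr2c1 was thus 36.4- and 88.4-fold lower than Nr2c2, a mean log2 ratio of -5.83 ± 0.91. All Nr2c1 TPM was assigned to Nr2c1-203. The related receptors Nr2f1 and Nr2f2 (COUP-TFI and COUP-TFII) had 0 counts in both libraries.

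The transcripts of Nr2c2 were divided differently in the libraries. Nr2c2-201 (596 codons) held 48.5% of TPM in replicate 1 and 83.7% in replicate 2, or 78.0% and 97.2% of counts. Nr2c2-205, annotated for nonsense-mediated decay, had 722 counts and 26.1% of TPM in replicate 1 and 0 counts in replicate 2. Nr2c2-203, a fragment with 14 annotated coding bases, held 15.9% and 13.3% of TPM from 143 and 78 counts. The 3′ end of Nr2c2-201 overlaps Mrps25, a mitochondrial ribosome gene on the opposite strand with 675 and 486 counts. Whether strand was used in counting is not given in the sources used here, so reads in that overlap are of uncertain origin.

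Myb encodes a transcription factor of blood progenitors, and lower MYB activity goes with higher fetal haemoglobin in people. It lies at chr10:21124935-21160984 (minus strand). It had 3149 counts and 7.13 TPM (6.79 to 7.35) in replicate 1, and 1476 counts and 3.14 TPM (2.96 to 3.29) in replicate 2. Replicate 1 was 2.27 times higher in TPM and 1.30 times higher in TMM-scaled counts. Mybl2, the family member of dividing cells, was higher than Myb in both libraries, at 17.5 and 9.64 TPM, and Myb was 2.45- and 3.07-fold lower. With protein-coding transcripts alone, the mean log2 ratio of Myb over Mybl2 was -0.96 ± 0.03, against -1.46 ± 0.23 with all transcripts. Mybl1 had 4.96 and 1.05 TPM.

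Myb reads were divided between a pair of coding forms. Myb-201 (636 codons) held 53.3% and 56.4% of TPM in replicates 1 and 2. Myb-203 (755 codons), which has 1 more coding exon, held 17.7% and 43.6%, from 717 and 724 counts. Myb-202, annotated as a retained intron, had 710 counts and 29.0% of TPM in replicate 1 and 0 counts in replicate 2. The added exon is chr10:21144969-21145325 (GRCm38, minus strand) and has 357 bases; each line gives 30 bases of the shared exon and, in capitals, the first 30 bases of the exon that follows in that form.
Myb-203 junction: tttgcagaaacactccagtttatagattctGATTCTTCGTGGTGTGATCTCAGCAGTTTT
Myb-201 junction: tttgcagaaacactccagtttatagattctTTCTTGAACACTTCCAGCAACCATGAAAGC
The larger form therefore made up 24.9% of coding Myb TPM in replicate 1 and 43.6% in replicate 2.

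Mbd2 and Chd4 are the NuRD subunits on the list: Mbd2 binds methylated CpG, and its loss raises gamma-globin in transgenic mice, while Chd4 is the ATPase that moves nucleosomes. Mbd2 (chr18:70568189-70626131, plus strand) had 7390 counts and 36.0 TPM in replicate 1, and 3736 counts and 20.6 TPM in replicate 2. Chd4 (chr6:125095981-125130591, plus strand) had 12107 counts and 29.6 TPM in replicate 1, and 6407 counts and 13.8 TPM in replicate 2. Both were higher in replicate 1 in TPM, and TMM-scaled counts put the log2 ratios at 0.27 for Mbd2 and 0.21 for Chd4. Mbd3, which replaces Mbd2 in a separate form of NuRD, had 6.11 and 3.11 TPM, and Mbd2 was 5.90- and 6.62-fold higher (mean log2 ratio 2.64 ± 0.12). Chd3, the other remodeller, had 2.60 and 1.48 TPM, and Chd4 was 11.4- and 9.33-fold higher (3.37 ± 0.20). Chd5 was at 0 counts in both libraries.

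Much of the Mbd2 and Chd4 TPM lay in short transcripts that are not protein-coding. The retained-intron transcript Chd4-206 (618 bases) held 42.8% and 31.4% of Chd4 TPM, from 6.77% and 4.46% of its counts. Chd4-202 (1922 codons) held 27.7% and 31.4% of TPM, from 70.0% and 65.0% of counts. Chd4-202 thus led by counts in both libraries, while Chd4-206 led by TPM in replicate 1 and tied with it in replicate 2. Chd4-205, another retained intron, held 13.4% and 13.0% of TPM, and the coding transcripts Chd4-203 and Chd4-204 held 6.01% and 10.9%, and 8.45% and 13.3%. Mbd2-201 (414 codons) held 63.8% and 57.5% of Mbd2 TPM, the retained introns Mbd2-204 and Mbd2-205 held 18.1% and 26.2%, and 1.61% and 10.5%, and Mbd2-203, annotated for nonsense-mediated decay, held 13.8% and 3.74%. Counting protein-coding transcripts alone, Mbd2 stood at 24.0 and 12.3 TPM and Chd4 at 13.0 and 7.67 TPM, 2.29- and 1.80-fold below the whole-gene level for Chd4. On that footing Mbd2 was 3.92- and 4.43-fold higher than Mbd3, and Chd4 was 9.89- and 6.39-fold higher than Chd3. The scaRNA gene Gm23751 (256 and 357 counts) lies within Chd4 on the same strand and touches no annotated Chd4 exon.

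**Figure D3:**
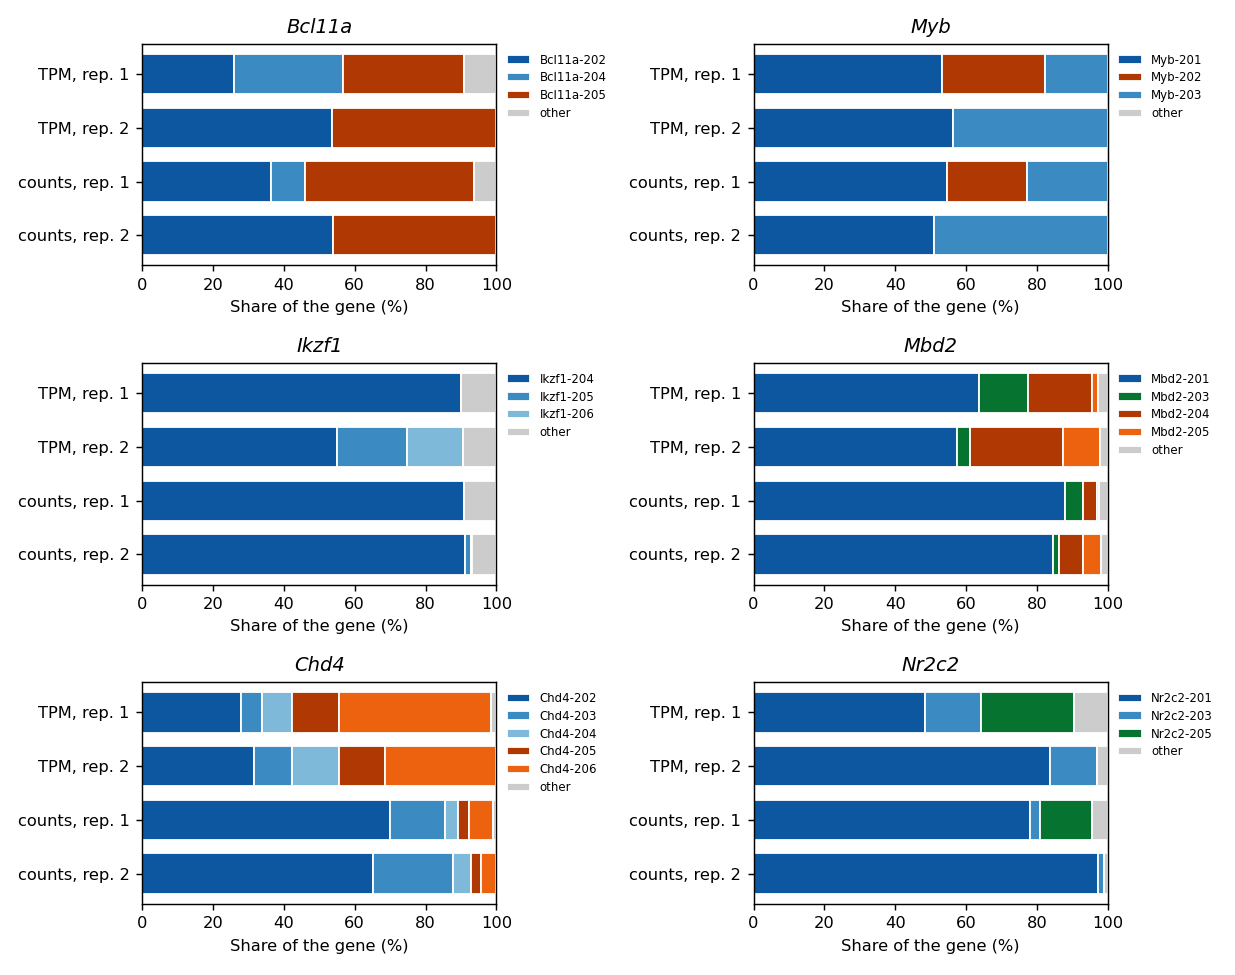
Share in percent of each gene held by its transcripts, by TPM (upper bars) and by expected counts (lower bars), for both libraries; blue is protein-coding, orange retained intron, green nonsense-mediated decay, and grey the transcripts under 10% in every bar. Chd4-206 holds 42.8% and 31.4% of Chd4 by TPM but 6.77% and 4.46% by counts, while Ikzf1-204 holds over 90% of counts in both libraries.

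Such shares were common. Of 3961 nuclear protein-coding genes that had several annotated transcripts and reached 1 TPM in both libraries, 62.7% had 10% or more of their TPM in transcripts that are not protein-coding, with a median of 21.3%. Among the 7 silencing genes at that level the mean share over libraries was 50.4% for Chd4, 37.0% for Mbd2, 14.5% for Myb, 13.0% for Nr2c2, and 0 for Sox6, Ikzf1 and Zbtb7a. The leading transcript's share of TPM differed by over 15 points between libraries for 2 of the 7, Ikzf1 and Nr2c2, against 48.8% of those genes. By counts it did so for 1, Nr2c2, against 39.3%.

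Lin28b, at chr10:45376620-45486395 (minus strand), had 0 counts in both libraries. A count of 3 would have given 0.00354 TPM in replicate 1 and 0.00381 in replicate 2, and Sox6 stood at least 22907- and 14980-fold above those levels. At this depth Lin28b was therefore not detectable; such limits cover counting error only, since copies made by PCR are not independent molecules. Lin28a, named here after its values were seen, had 0.29 and 0.08 TPM. Of the 15 genes listed for the LIN28 and let-7 pathway, 5 reached 1 TPM in both libraries, near the 23.9% of nuclear protein-coding genes that did so. Besides Lin28b, 3 had 0 counts in both libraries: Igf2bp1 and Igf2bp3, RNA-binding proteins of fetal cells, and Trim71, a let-7 target. The highest were Tut7, a uridylyl transferase that can tail let-7 precursors, at 28.6 ± 7.88 TPM, and Dgcr8, a partner of the nuclease Drosha, at 14.9 ± 3.92. Drosha followed at 5.00 and 1.85 TPM, and Hmga1, a chromatin protein of growing cells whose fractional counts mark reads shared with other genes, at 4.33 and 1.58.

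The NuRD genes were nearly all present. Of the 15 listed, which include Mbd2 and Chd4, 14 reached 1 TPM in both libraries, against 23.9% of nuclear protein-coding genes. The highest by mean TPM were Mbd2, Rbbp4, Chd4 and Hdac1. Rbbp4, a histone-binding subunit, stood at 21.2 and 23.2 TPM and the deacetylase Hdac1 at 13.6 and 8.83 TPM. The order of the first 3 differed between libraries: Mbd2, Chd4 and Rbbp4 in replicate 1, and Rbbp4, Mbd2 and Chd4 in replicate 2. Hdac1 had fractional counts, so part of its reads were shared with other genes. Rbbp4 was higher in replicate 2 in TPM, while Mbd2, Chd4 and Hdac1 were higher in replicate 1.

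**Figure D4:**
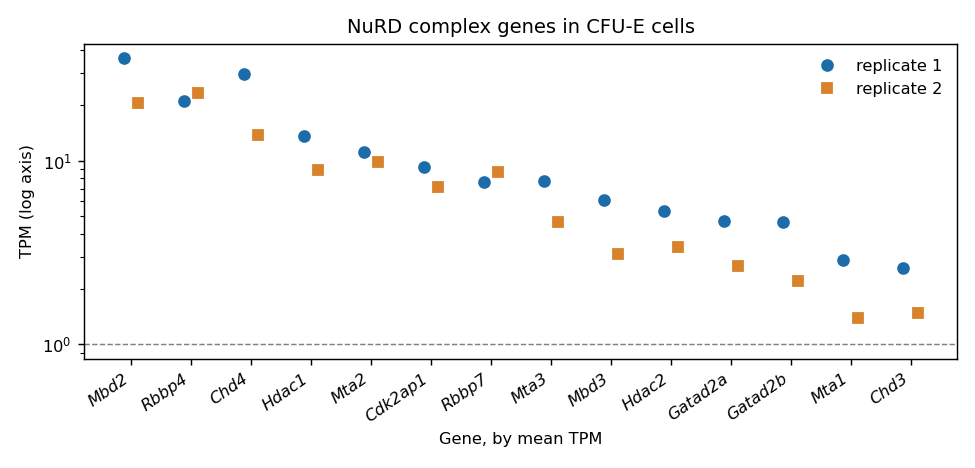
Levels in TPM (log axis) of the 14 NuRD complex genes with reads, by library; the dashed line is 1 TPM. Mbd2, Rbbp4 and Chd4 are the highest in both libraries, in a different order in each, and Mbd3 at 6.11 and 3.11 TPM and Chd3 at 2.60 and 1.48 TPM lie below Mbd2 and Chd4 in both libraries.

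Of 15 genes for other silencing cofactors, 10 reached 1 TPM in both libraries, against 23.9% of nuclear protein-coding genes. Ncor1, a corepressor that links repressors to deacetylases, averaged 27.6 ± 10.9 TPM, and Dnmt1, the maintenance DNA methyltransferase that BCL11A and TR2/TR4 complexes can contain, averaged 21.9 ± 7.08. Trim28, a corepressor of zinc finger proteins, had 11.7 and 6.92 TPM, and Ehmt1, a histone methyltransferase, had 9.56 and 4.65. Of 14 further regulators of globin switching, 10 reached 1 TPM, against the same 23.9%. Atf4 averaged 40.5 ± 14.5 TPM and Eif2ak1, the heme-regulated kinase that acts on Atf4 translation and lowers fetal globin in human cells, averaged 37.3 ± 16.3. Klf1 averaged 36.1 ± 24.4 TPM and Tal1, an erythroid factor of the looping complex, 21.4 ± 4.73. Paralogs of the silencing genes reached 1 TPM in 6 of 20 cases, near the 23.9% of all nuclear protein-coding genes, with Mybl2, Ikzf5, Mbd3 and Mybl1 the highest, and 5 had 0 counts in both libraries: Zbtb7c, Ikzf4, Chd5, Nr2f1 and Nr2f2. These lists hold genes at many levels, and their counts are descriptions.

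The silenced genes themselves were not seen. Hba-x, Hbb-y and Hbb-bh1 each had 0 counts in both libraries. A count of 3 would have given them 0.0393, 0.0419 and 0.0469 TPM in replicate 1 and 0.0391, 0.0415 and 0.0460 TPM in replicate 2. The upper ends of their deposited credibility intervals were 0.0669, 0.0416 and 0.0463 TPM in replicate 1. In replicate 2 those ends were 0.0658, 0.0406 and 0.0451 TPM. The adult genes Hba-a1, Hba-a2, Hbb-bs and Hbb-bt all reached 1 TPM, with Hba-a2 at 16412 and 7588 TPM and Hbb-bs at 4198 and 1440 TPM. The near-identical adult copies share reads, so the split among them is uncertain.

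The replicates were set against each other with TMM-scaled counts. Of the 9 silencing genes that averaged 50 counts or more, 1 was 2-fold or more apart, against 21.1% of 10403 genes at such counts. It was Nr2c1, with a log2 ratio of 1.10 for replicate 1 over replicate 2, from 102 and 29 counts. The other 8 ranged from -0.51 for Nr2c2 to 0.47 for Bcl11a, with Sox6 at -0.11, Ikzf1 at -0.12, Zbtb7a at -0.36 and Myb at 0.38. Of the 9 genes, 5 were higher in replicate 1. On the TPM scale 8 of the 9 were higher in replicate 1 and 4 were 2-fold or more apart, against 36.3% of the 10403 genes, whose median log2 ratio was 0.66 on that scale.

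**Figure D5:**
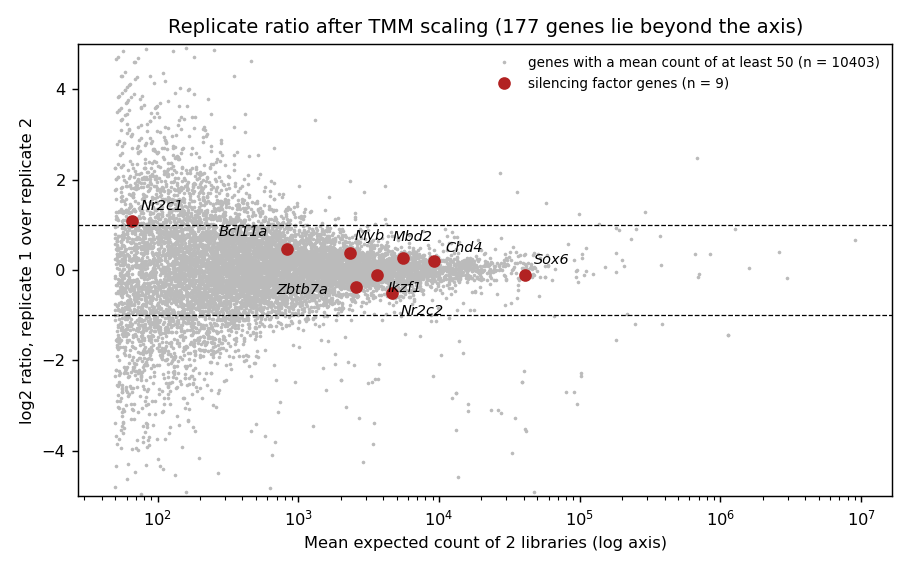
Log2 ratio of replicate 1 over replicate 2 after TMM scaling against the mean expected count (log axis), for 10403 genes in grey and the 9 silencing factor genes that averaged 50 counts or more in red; dashed lines mark 2-fold, and 177 genes lie beyond the vertical axis. Only Nr2c1, at 1.10, lies outside the dashed lines among the red points.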

How the data were processed

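Gene and transcript tables of 2 CFU-E libraries on mm10 were used, with GENCODE M4 named as the annotation in the notes deposited with the files; neither aligner nor quantifier is given in the sources used here. Per the file headers, the authors deposited expected counts (estimates that share reads matching several genes), TPM and posterior mean TPM. Further deposited columns hold a credibility interval for TPM, of unstated level, and its lower and upper ends are treated here as signal. Transcript percent columns were also deposited by the authors; shares were instead computed here from transcript TPM and from expected counts. Symbols, biotypes and exons came from GENCODE M21, of the same assembly, which matched 42462 of 43346 gene rows; all 48 transcripts of the silencing genes were found and 45 had the same length. Counts outside Ensembl rows were 0 and 25. Promoter sequences came from RefSeq on GRCm38.p6, and exon sequences from GENCODE M21 transcripts.

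Expected counts were rounded and scaled by TMM (edgeR 4.0.16; genes of 10 or more counts in each library), with DESeq2 1.42.0 size factors as an alternative (R 4.3.3). Log2 ratios used a prior count of 0.5. Python 3.11.15, numpy 2.4.6, pandas 2.3.3 and matplotlib 3.10.9 were used. Pair ratios were formed within each library without a pseudocount, and genes or pairs were called apart only where the log2 ratio had 1 sign in both libraries and a mean above its SD. Alternatives were TPM minimums of 0.5 and 5, posterior mean TPM, TPM rescaled to nuclear protein-coding genes, a count minimum of 10, counts without length, a pseudocount of 0.1 TPM, a prior count of 5, TMM without a filter, DESeq2 scaling, and leaving out each replicate; protein-coding transcripts alone for levels and pairs were added after values were seen. The ratio calculation was tested on simulated data. The genes and lists were chosen with earlier results of these data known. Named are all silencing genes, the 4 highest of each other list and those at 0 counts in both libraries, both genes of each pair, and transcripts with 10% or more of a silencing gene; marker lists are given mainly as sums.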

Additional observations from a re-analysis of the deposited data

How the results depend on the processing

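No pair ratio reversed under any alternative run. Leaving out each replicate moved no count of genes at 1 TPM by over 1.5 times, among the silencing genes and the lists other than marker lists. Marker lists were outside that check: without replicate 2, 4 megakaryocyte markers reached 1 TPM, against 2 with both libraries. Of nuclear protein-coding genes, 29.9% did so without replicate 2 and 23.9% with both libraries. With 2 replicates, leaving one out cannot move a mean beyond its SD, so this says nothing about the stability of the pair ratios: Bcl11a over Bcl11b was 2.56 or 5.11, against 3.84 with both libraries. At 5 TPM or more in both libraries, 4 of 10 silencing genes, 7 of 15 NuRD genes and 4 of 15 cofactor genes passed. So did 2 of 15 LIN28 and let-7 pathway genes and 1 of 20 paralogs. Of nuclear protein-coding genes, 8.82% passed at that level. Rescaling TPM to the nuclear protein-coding genes let 9 LIN28 and let-7 pathway genes and 13 paralogs pass, and a minimum of 10 counts let 9 and 14 pass, out of 15 and 20 genes. The share of all nuclear protein-coding genes that passed was also higher under both settings, at 42.2% and 46.0%, against 23.9% at 1 TPM. On deposited TPM 4 silencing genes were 2-fold apart between replicates and 8 of 9, against 5 by TMM-scaled counts, were higher in replicate 1, and by counts 1 had a leading transcript over 15 points apart. Log2 pair ratios moved beyond their SD as follows. A pseudocount of 0.1 TPM gave -4.74 for Nr2c1 over Nr2c2, -4.83 for Bcl11a over Klf1 and 3.38 for Ikzf1 over Ikzf2, and posterior mean TPM gave -4.92 for Bcl11a over Klf1. Counts without length gave 3.20 for Mbd2 over Mbd3, 2.74 for Chd4 over Chd3, -3.11 for Bcl11a over Klf1 and -1.06 for Myb over Mybl2. Protein-coding transcripts alone, added after values were seen, gave 2.06, 2.99, -5.74 and -0.96 for those 4 pairs and 4.13 for Ikzf1 over Ikzf2. Sox6 over Sox13 has no ratio, since Sox13 was listed at 0 TPM. The cause of these shifts was not tested.

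No paired analysis was possible because there is 1 group. With 2 libraries an SD rests on a single difference, and the TPM scale of the libraries differs, which enters every SD given in TPM. Shares of short transcripts in TPM can rest on few reads, as for Ikzf1-206 with 11 counts. Low genes are limited by depth: Nr2c1 had 29 counts in replicate 2.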

Other observations

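The RefSeq promoter windows of the silencing genes had a median GC content of 60.0% over 16 windows, against 52.7% over 32851 windows, and a median of 15 CpG dinucleotides, against 7. They varied among themselves: the 6 Sox6 windows ran from 36.7% to 63.3% GC, and the window nearest Sox6-203 had 41.0% GC and 2 CpG, against 47.0% and 11 for that of Sox6-204. The Ikzf1 window at the start of Ikzf1-203 had 81.3% GC and 52 CpG. Lin28b, with no reads, had a window of 39.0% GC with 2 GATA matches. These are properties of the reference sequence, and methylation was not measured here.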
